A study of Mus musculus with 4 samples.

Results

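Cluster 3 is a group of mouse mammary tumor cells that the authors' clustering of open chromatin set apart, and it consisted almost wholly of untreated cells. Its members were taken as the untreated cells carrying the cluster number 3 in the deposited cell table. There were 3396 of them among 18944 untreated cells, and among 43782 cells in the whole series. A further 14 cells of each eribulin library carried the same number and are described at the end.

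All cells were of the PB3 line, cultured from a mouse mammary tumor. Chromatin accessibility was measured in 4 libraries, 1 for each combination of treatment and protocol: scATAC (run 1), and the ATAC part of a multiome assay on nuclei (run 3). The untreated cells received no drug, whereas the eribulin cells went through 4 rounds of 500 nM eribulin for 72 h, each followed by 48 h of recovery. Eribulin is a chemotherapeutic that blocks the growth of microtubules. Cells of the culture carried lentiviral lineage barcodes, which cells inherit from the cell that was first infected. With 1 library per group and a cluster drawn on the accessibility of these same cells, no difference below has a test. The intervals are exact 95% binomial (Clopper-Pearson) intervals, which cover counting error only and treat cells of 1 lineage as independent.

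In ATAC sequencing the transposase Tn5 cuts DNA that is not wrapped around nucleosomes, so the cut sites of a cell mark its open regulatory regions. Promoters are open in most cells, while distal enhancers tend to differ between cell states, and a cluster of cells in such data is a set that shares accessible regions. Tumor cells of 1 line can occupy several chromatin states, and an inherited barcode shows whether relatives sit in the same one.

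No single gene or peak was analysed, so the cluster is given by its number and no cell type is attached to it. The lineages that fill it are identified by their barcodes, and 6 are printed because they held the most cells of cluster 3. In each, the capitals are the short part of 14 bases, the letters tggt that follow are the linker, and the rest is the long part of 30 bases. The name of a lineage gives the number of its short part and then of its long part.
69-89668: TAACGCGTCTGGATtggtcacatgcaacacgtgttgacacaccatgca
52-92557: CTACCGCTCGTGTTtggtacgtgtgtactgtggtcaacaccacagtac
75-57211: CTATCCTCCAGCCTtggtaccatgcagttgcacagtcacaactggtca
61-63448: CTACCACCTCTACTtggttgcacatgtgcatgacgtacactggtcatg
21-28628: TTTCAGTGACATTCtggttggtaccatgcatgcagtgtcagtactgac
48-83724: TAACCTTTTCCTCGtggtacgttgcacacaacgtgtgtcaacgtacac
These 6 sequences differed from each other at 25 to 38 of their 48 positions. Over all 298 lineages with a cell in cluster 3, the closest of the 44253 pairs differed at 10 positions, and 0 pairs differed at fewer than 5.

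Cluster 3 took about the same share of both untreated libraries. It held 1634 of 9361 scATAC cells, or 17.5% (16.7 to 18.2), and 1762 of 9583 multiome cells, or 18.4% (17.6 to 19.2). Clusters 2 and 4, in contrast, were each frequent in 1 protocol only, cluster 2 as the largest of the untreated multiome library and cluster 4 as the largest of untreated scATAC. Clusters 6, 8, 9 and 14 were the other clusters with at least 200 cells in each untreated library. The share of cells in cluster 3 hardly moved with depth: over 5 equal classes of cut sites per cell it ran from 16.6 to 18.4% in scATAC and from 16.8 to 19.4% in multiome. Of the cell barcodes, the tags that mark each droplet, 1 was common to both untreated libraries, 215 to the 2 scATAC libraries and 123 to the 2 multiome libraries. In none of these cases were both cells in cluster 3. Each eribulin library held only 14 cells of the cluster, so hardly any such pair could arise and their absence says little.

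**Figure D1:**
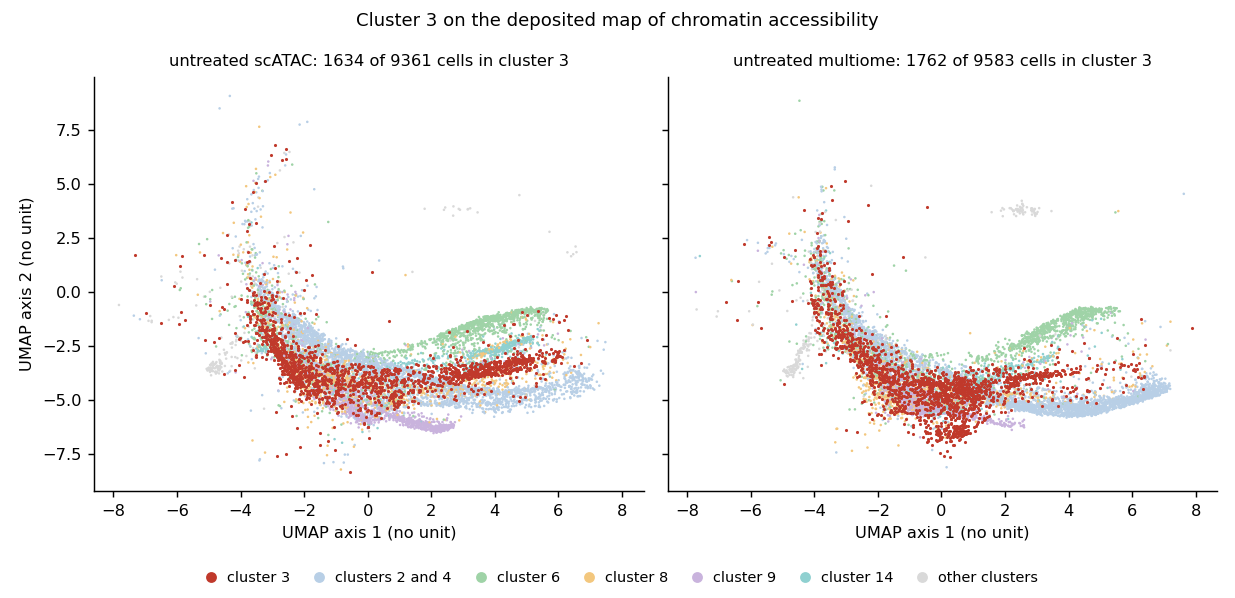
The deposited UMAP of untreated cells, with scATAC on the left, multiome on the right and axes without unit. Each point is 1 cell, coloured by cluster. Cluster 3 (red) runs through the middle of the untreated cells in both libraries and overlaps its neighbours along most of its length.

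Depth in cluster 3 was that of the other untreated cells. The median number of Tn5 cut sites in peaks was 7436 per cell in scATAC (quartiles 4801 and 11168.5) against 7446 in the other untreated cells. In multiome it was 5205 (quartiles 3387.25 and 8003.75) against 5223. Of the cluster 3 cells, 49.6% (47.2 to 52.1) in scATAC and 49.5% (47.1 to 51.9) in multiome lay above the median of the other cells of their library, where 50% means no shift. Peaks detected were likewise close, with medians of 6572.5 against 6599 in scATAC and 4753 against 4791 in multiome. Single clusters differed more in cut sites. In scATAC 59.5% of cluster 3 cells lay above the median of cluster 6, 54.2% above that of cluster 9, 46.5% above cluster 8, 43.0% above cluster 4 and 41.5% above cluster 14. In multiome the shares were 52.2% for cluster 6, 50.8% for cluster 9, 50.1% for cluster 8, 47.8% for cluster 2 and 36.0% for cluster 14.

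The nucleosome signal was lower in cluster 3 than in all other untreated cells, and clusters 4 and 2 accounted for most of that gap. This ratio sets the fragments that span a single nucleosome against the shorter, nucleosome-free ones, so a low value means a larger part of short fragments. In scATAC the median was 1.05 (quartiles 0.970 and 1.13) against 1.07, and 42.2% (39.8 to 44.6) of cluster 3 cells lay above the median of the others. In multiome it was 0.864 (quartiles 0.786 and 0.949) against 0.919, and 33.7% (31.4 to 35.9) lay above. The cluster's median was lower in all 5 depth classes of both libraries.

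Set against single clusters, the pattern was different. Only 23.7% of cluster 3 scATAC cells exceeded the median of cluster 4 (1.14), and 17.3% of its multiome cells exceeded that of cluster 2 (0.983). Against clusters 6, 8 and 9 in scATAC the cluster 3 cells were on the high side, with 52.9%, 54.2% and 58.1% above those medians, but against cluster 14 on the low side, with 41.5% (39.1 to 43.9). In multiome 55.7% lay above the median of cluster 6, 37.2% above that of cluster 8, 49.5% above that of cluster 9 and 47.4% above that of cluster 14. Without clusters 2 and 4 among the cells compared, the share above became 53.0% in scATAC, on the other side of 50%, and 48.0% in multiome.

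Gene activity, in Signac a count of cuts over genes and their promoters that serves as a stand-in for expression, behaved in the same way. The median total per cell was 7075 against 7310 in the other scATAC cells, and 5048.5 against 5155 in multiome. Genes with any activity numbered 4739 against 4840 and 3708.5 against 3772. Per cut site in peaks the median was 0.959 against 0.976 in scATAC, with 37.3% (34.9 to 39.7) of cluster 3 cells above the others' median, and 0.963 against 0.980 in multiome, with 36.1% (33.8 to 38.4) above.

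The gap was again widest against clusters 4 and 2. Against the rest it was smaller and mostly in the other direction, and against cluster 6 in multiome it was still clear. Just 16.5% of cluster 3 cells exceeded the median gene activity per cut site of cluster 4 in scATAC, and 16.1% that of cluster 2 in multiome. Above the median of cluster 6 lay 55.8% in scATAC and 65.4% in multiome, and above that of cluster 9 54.3% and 60.9%. Against cluster 8 the shares were 50.9% and 46.9%, and against cluster 14 they were 47.4% and 58.7%, so these 2 clusters lay on different sides in the 2 libraries. With clusters 2 and 4 left out, the shares against all remaining cells were 52.1% and 57.5%, so the direction turned in both libraries.

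Enrichment at transcription start sites, the density of cuts at the starts of genes relative to the flanks and a measure of library quality, barely separated cluster 3 from the others. Its median was 5.03 against 4.99 in scATAC, with 53.1% (50.7 to 55.6) of the cluster above, and 5.02 against 5.01 in multiome, with 50.6% (48.2 to 52.9) above.

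**Figure D2:**
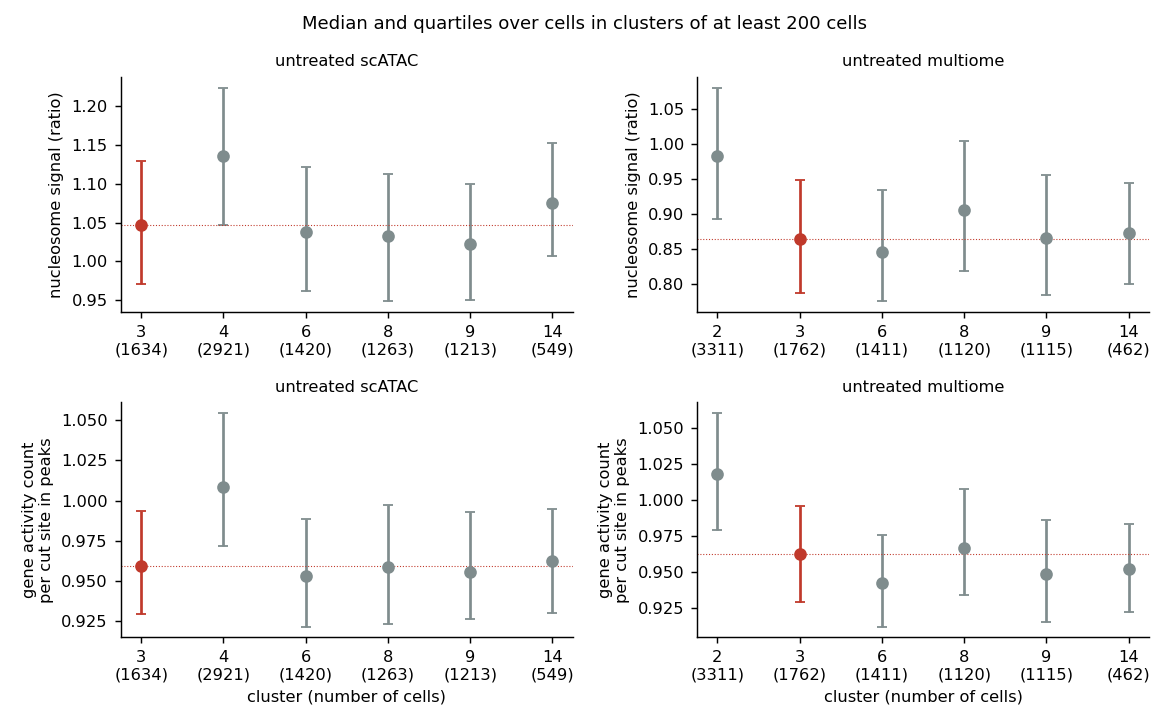
Nucleosome signal (upper panels, ratio) and gene activity count per cut site in peaks (lower panels) in each cluster with at least 200 cells of the library. Points are medians over cells, bars the quartiles, and the dotted line the median of cluster 3. Cluster 4 in scATAC (nucleosome median 1.14) and cluster 2 in multiome (0.983) sit above cluster 3, and the other clusters lie nearer to it.

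On the UMAP, cluster 3 was diffuse. Among the 30 nearest cells of the same library, 39.1% were of cluster 3 for the average cluster 3 cell in scATAC and 37.8% in multiome. Clusters 6 and 9 kept more to themselves, with 61.9% and 63.1% own neighbours in scATAC and 56.3% and 46.4% in multiome. Cluster 8 had fewer, with 25.2% and 24.1%. Larger clusters have more own neighbours by size alone, so the share was also divided by the cluster's share of the library. That ratio was 2.24 in scATAC and 2.06 in multiome for cluster 3, near those of cluster 4 in scATAC (2.12), cluster 2 in multiome (2.09) and cluster 8 (1.87 and 2.06). Clusters 6 (4.08 and 3.82), 9 (4.87 and 3.99) and 14 (8.13 and 5.58) had higher ratios. The ratio has a lower ceiling for larger clusters, so it does not rank clusters of unlike size. By plain share, cluster 4 in scATAC (66.3%) and cluster 2 in multiome (72.3%) had more own neighbours than cluster 3. Cluster 14 had 47.7% in scATAC but 26.9% in multiome, the second below cluster 3. Because the map and the clusters come from the same components of the data, these shares describe the layout and support nothing further.

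Few cluster 3 cells lay in pure surroundings. At least 50% of the neighbours were of cluster 3 for 523 scATAC cells (32.0%, 29.7 to 34.3) and 480 multiome cells (27.2%, 25.2 to 29.4), and at least 90% for 30 and 96 cells. The 523 and 480 cells in the core were deeper than the others of the cluster, with median cut sites of 10233 against 6603 in scATAC and 6651 against 4619.5 in multiome. From the lowest to the highest depth class, the share of own neighbours rose from 33.5 to 50.7% in scATAC and from 27.1 to 45.1% in multiome. Cluster 6 spanned a wider range, 36.7 to 80.1% and 23.9 to 81.7%, so even the deepest cells of cluster 3 stayed more mixed than those of cluster 6.

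Cluster 8 was a neighbour in excess of its size in both libraries. It supplied 29.6% of the neighbours outside cluster 3 in scATAC, where it made up 16.3% of the cells outside, a ratio of 1.81. In multiome the values were 23.7% and 14.3%, a ratio of 1.65. Clusters 4 and 2 were under-represented, with ratios of 0.80 for cluster 4 in scATAC and 0.664 for cluster 2 in multiome, and so was cluster 6 with 0.788 and 0.765. Cluster 9 differed between the libraries, at 0.782 in scATAC and 1.41 in multiome, and cluster 14 was in excess in both, at 1.21 and 1.75, the second above the ratio of cluster 8.

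**Figure D3:**
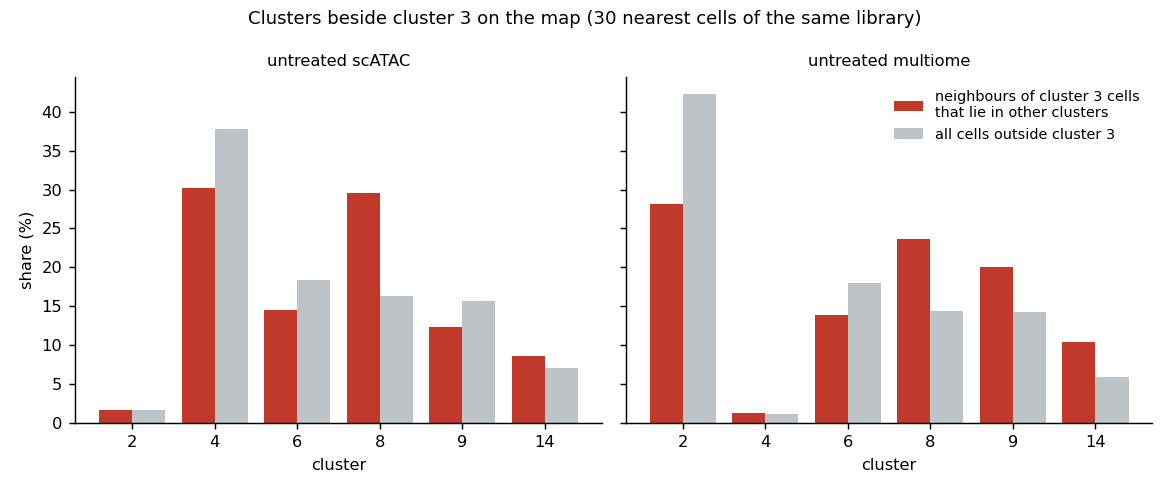
Share (%) of the neighbours of cluster 3 cells that lie in each other cluster (red), among the 30 nearest cells of the same library, beside the share of that cluster among all cells outside cluster 3 (grey). Cluster 8 exceeds its grey bar in both libraries (29.6 against 16.3% and 23.7 against 14.3%), while cluster 4 in scATAC and cluster 2 in multiome fall short of theirs.

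The 2 protocols overlapped within the cluster without mixing fully. When each library was thinned to 1634 cluster 3 cells, 60.5% of the 30 nearest cluster 3 cells came from a cell's own library, where 50% would be full mixing. The same measure was 57.4% in cluster 6, 57.5% in cluster 8, 61.1% in cluster 9 and 71.9% in cluster 14. Protocol and run cannot be told apart here.

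Lineage barcodes could be followed in the multiome library almost alone. A single barcode had been called in 921 of 1762 cluster 3 cells (52.3%, 49.9 to 54.6) and in 3851 of 7821 other untreated multiome cells (49.2%, 48.1 to 50.4). No barcode was called in 643 (36.5%) against 3247 (41.5%). The class named multiplet in the deposited calls held 54 cells of cluster 3 (3.06%, 2.31 to 3.98) and 142 other cells (1.82%, 1.54 to 2.14), while doublets made up 7.26% and 6.92%. Cells of cluster 3 called doublet or multiplet had more cut sites (median 6303) than those with 1 (5491) or none (4515). In scATAC only 4 of 1634 cluster 3 cells carried a single call, against 25 of 7727 others.

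Cluster 3 held many lineages. Its 921 called cells came from 298 of the 484 lineages seen in the untreated multiome library. Of the 484, 74 were seen in cluster 3 alone, each with at most 4 cells. Among these 74, 44 were of the library's 99 lineages with 1 cell, which can lie in 1 cluster only. Lineages seen in another cluster alone were not counted. In 458 called cells drawn at random, 206 different lineages would be found in cluster 3, against 153 in cluster 2, 134 in cluster 6, 148 in cluster 8 and 138 in cluster 9. Its most frequent lineage made up 6.51% of its called cells, compared with 4.53% in cluster 2, 13.4% in cluster 6, 10.9% in cluster 8, 12.4% in cluster 9 and 56.3% in cluster 14.

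Small lineages lay in cluster 3 far more often than large ones. Of lineages with under 10 called cells, 32.4% of the cells (29.6 to 35.2; 365 of 1128) were in cluster 3, against 15.3% (14.1 to 16.5; 556 of 3644) for lineages with 10 or more. The share was 44.4% (34.5 to 54.8) for lineages seen in 1 cell, 37.1% for 2 to 4 cells, 26.7% for 5 to 9, 23.7% for 10 to 19, 10.3% for 20 to 49 and 14.5% for 50 or more. Giving each lineage equal weight left the means at 36.5% for lineages under 10 cells and 18.6% for the others.

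In cluster 2, the largest of that library, the share was lowest for the smallest lineages. It held 18.2% of the cells of 1-cell lineages, 45.4% of those in lineages of 20 to 49 cells and 35.7% of those in lineages of 50 or more. Depth differed with lineage size, since cells of 1-cell lineages had a median of 6828 cut sites and the other size classes 5198 to 5704. Among cells with at least the library's median depth, 34.6% of cells of the small lineages and 14.6% of the large were in cluster 3, and among shallower cells 29.8% and 16%. The gap was thus present at both depths. It was also there without lineages seen in 1 cell, at 31.2% for lineages of 2 to 9 cells.

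**Figure D4:**
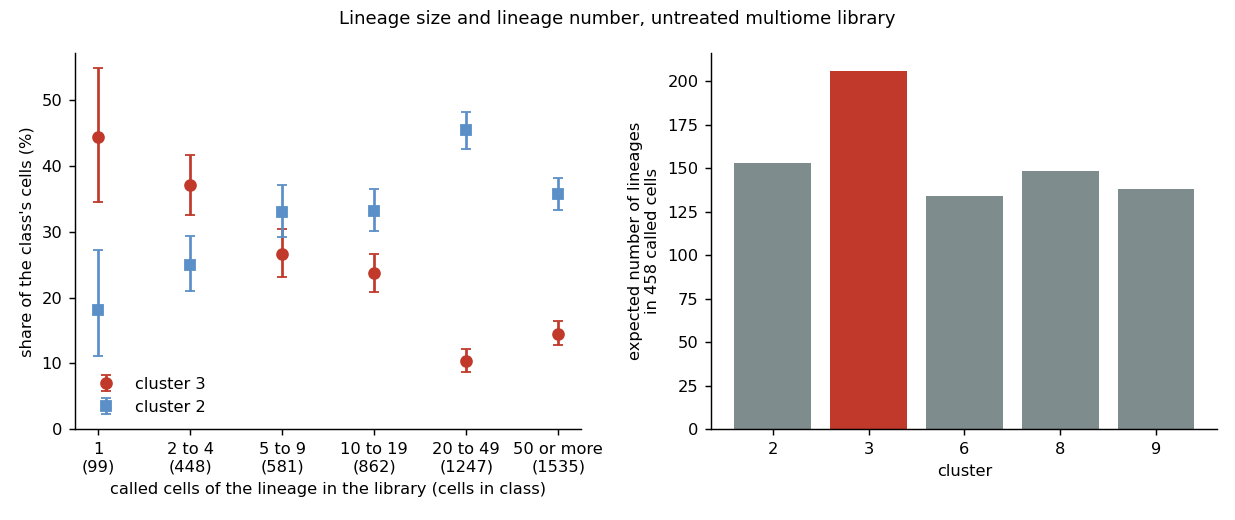
Left, share (%) of called untreated multiome cells in cluster 3 (circles) and cluster 2 (squares) by the number of called cells of their lineage, with exact 95% binomial intervals. Right, expected number of lineages in 458 called cells of each cluster. Cluster 3 falls from 44.4% to 14.5% between 1-cell lineages and lineages of 50 or more, and has the tallest bar on the right (206).

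A subset of lineages sat mainly in cluster 3. Of the 125 lineages with at least 10 called cells, 102 had a cell in cluster 3, and the median lineage had 8.62% of its cells there (quartiles 3.33 and 23.8). Of these 125, 22 (17.6%) had at least 2 times the 19.3% of all called cells in the cluster. For 20 of the 22 the lower end of the interval was above 19.3%. The 22 were chosen by these same shares, so that count is largely given by the choice and supports nothing further. Over 50% of the cells were in cluster 3 for 17 lineages, with shares from 54.5 to 90% and a median of 69.2%. The lineages just outside that limit were 65-15834 with 10 of 20 cells, 54-66684 with 10 of 21 and 55-23349 with 8 of 19. Just inside it was 2-35365, with 6 of 11.

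Lineage 69-89668 contributed most, with 60 of its 80 cells in cluster 3 (75%, 64.1 to 84.0). Next came 52-92557 with 47 of 69 (68.1%, 55.8 to 78.8), 75-57211 with 36 of 50 (72.0%, 57.5 to 83.8) and 61-63448 with 29 of 35 (82.9%, 66.4 to 93.4). Together these 4 lineages made up 18.7% (16.2 to 21.3) of the called cells of cluster 3 and 1.61% of the called cells elsewhere. They were picked for their number of cells in cluster 3, so part of that contrast is given by the choice. Lineage 21-28628 ranked next by number but was not based in the cluster, since 14 of its 57 cells (24.6%, 14.1 to 37.8) were there and 32 were in cluster 6.

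The other lineages based in cluster 3 were smaller, with 10 to 19 cells. They included 48-83724 with 13 of 19 cells in the cluster, 3-58861 with 11 of 14, 51-65235 with 11 of 15, 29-73180 with 10 of 13 and 38-7217 with 9 of 10. The remaining 8 (75-87979, 71-68806, 52-78401, 69-97343, 18-4395, 52-16742, 86-73417 and 2-35365) had 6 to 9 cells there. The 17 based lineages had 17 different long parts and 13 different short parts, so 69-89668 and 69-97343, for example, share only the short part and differ in the long part. Every pair of the 17 differed at 18 or more of 48 positions.

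**Figure D5:**
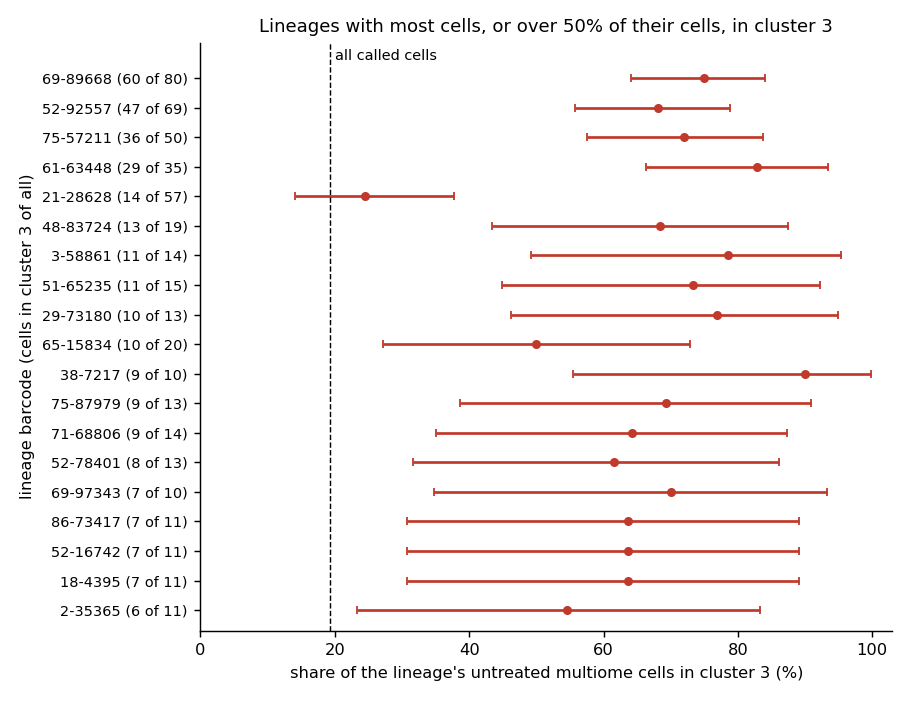
Share (%) of each lineage's called untreated multiome cells that lie in cluster 3, for the 10 lineages with most cells there and all others with over 50%. Points are shares, bars exact 95% binomial intervals, and the dashed line marks the 19.3% of all called cells. All lineages but 21-28628 have intervals wholly above the line, which largely follows from picking them by these same counts.

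Lineages based in the cluster supplied 286 of its 921 called cells (31.1%). Lineages of 2 to 9 cells supplied 34.9% and lineages seen once 4.78%. Larger lineages lying mainly in cluster 2 gave 11%, those lying mainly in cluster 6 gave 4.13%, and those lying mainly in cluster 8 gave 3.15%. Lineages lying mainly in cluster 9 were nearly missing, with 2 of their 298 cells (0.671%) in cluster 3, although cluster 9 lay beside it on the multiome map.

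The 113 cells of the 17 lineages that lay outside cluster 3 were spread over the other untreated clusters. Cluster 2 held 33.6% of them, while it held 45.1% of other lineages' cells outside cluster 3. For cluster 8, one of the neighbours in excess on the map, the shares were 21.2% (14.1 to 29.9) and 13.5%. They were 19.5% and 18.1% for cluster 6, and 12.4% and 11.9% for cluster 9.

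Inside the cluster, relatives were on average only slightly closer than other cells, and not in every lineage. For the 47 lineages with at least 5 cells in cluster 3, 2.68% of the 10 nearest called cluster 3 cells were of the same lineage, against 2.22% given by the frequency of the lineages. For 69-89668, the most frequent, the values were 8.67% and 6.41%, while 52-92557 was near its frequency, at 5.32% and 5%. Among the 10 lineages with most cells there, only 48-83724 and 51-65235 fell below their frequency, at 0% against 1.30% and 1.09%. The core and the edge of the cluster had nearly the same make-up, with 34.5% and 29.7% of called cells from based lineages and 40.0% and 39.5% from lineages of under 10 cells. Lineage medians within the cluster ran from 2777 to 12275 cut sites and from 0.788 to 0.968 in nucleosome signal.

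Comparing relatives with each other repeated the order seen between clusters. In lineages with at least 3 cells on each side, the median nucleosome signal was lower in cluster 3 than in cluster 2 for 28 of 35 lineages (median difference -0.0757). Against clusters 6, 8 and 9 together it was lower in 23 of 45 (median difference -0.00217). Gene activity per cut site was lower than in cluster 2 for 32 of 35 lineages and lower than in clusters 6, 8 and 9 for 17 of 45.

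A smaller share of the called cells of cluster 3 than of all other untreated cells belonged to a lineage that was also found in the eribulin multiome library. That library held 27 lineages, of which 25 had an untreated multiome cell and 21 a cell in cluster 3. They made up 61 of the cluster's 921 called cells (6.62%, 5.10 to 8.43), against 557 of 3851 elsewhere (14.5%, 13.4 to 15.6). The gap lay in the larger lineages: among lineages of 10 or more cells the shares were 9.17% (6.91 to 11.9) in cluster 3 and 17.6% (16.3 to 19) elsewhere, and among smaller ones 2.74% (1.32 to 4.98) and 1.57% (0.815 to 2.73). The range between clusters was wide, with 5% in cluster 6, 5.67% in cluster 14, 15.5% in cluster 8, 17.8% in cluster 2 and 22.3% in cluster 9. The 17 lineages based in cluster 3 made up 8.36% of called untreated multiome cells, but 1 of 1391 called eribulin multiome cells (0.0719%, 0.00182 to 0.400), a cell of 38-7217. Most lineages were missing after eribulin, since 25 of the 484 untreated ones were found there. Of the 484, however, 359 had under 10 called cells, whereas the 17 all had at least 10, so that count is not a matched background for them. Lineage 76-49517 alone held 31.5% of the called eribulin multiome cells and 6-93034 held 29.0%. The matching value for lineages based in other clusters was not computed, so the low share is not shown to be particular to cluster 3. Untreated and eribulin cells are 1 library each, so loss during treatment and sampling of the 2 cultures cannot be told apart.

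The 5 barcodes most frequent after eribulin had 2 to 40 untreated multiome cells each, and 20 of these 79 cells (25.3%, 16.2 to 36.4) lay in cluster 3. By lineage these were 2 of 2 cells of 76-49517, 4 of 12 of 6-93034, 4 of 6 of 95-33662, 8 of 19 of 55-23349 and 2 of 40 of 39-41529. Leaving out 39-41529, a choice made after its values were seen, gave 18 of 39 (46.2%, 30.1 to 62.8). Of all called cells of the library 19.3% were in cluster 3, which is within the first interval. That share went with lineage size, at 37.1% for lineages of 2 to 4 cells, 26.7% for 5 to 9, 23.7% for 10 to 19 and 10.3% for 20 to 49. The lineages kept had 2 to 19 cells and the one left out had 40. As a part of the cluster the 5 lineages were small, at 2.17% of its called cells against 1.53% of the others.

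The 4 called scATAC cells of cluster 3 belonged to 71-66188, 76-29396, 86-89958 and 89-62622. In multiome these lineages had 30, 0, 8 and 18 cells, of which 6 of 71-66188, 3 of 86-89958 and 0 of 89-62622 were in cluster 3. They are too few to compare the lineages of the 2 protocols.

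The eribulin cells numbered 3 were 14 of 16724 scATAC cells (0.0837%, 0.0458 to 0.140) and 14 of 8114 multiome cells (0.173%, 0.0944 to 0.289). Their nucleosome signal was that of other eribulin cells rather than of the untreated cluster 3, with medians of 0.733 in scATAC, beside 0.756 in the other eribulin cells and 1.05 in untreated cluster 3. In multiome the medians were 0.669, 0.668 and 0.864. Below the lower quartile of untreated cluster 3 lay 13 of 14 and 12 of 14 of them. On the map, however, 5 of the 14 scATAC cells and 9 of the 14 multiome cells had mostly untreated neighbours. Single barcodes were called in 4 of the multiome cells, and 3 of these carried 76-49517, whose 2 untreated cells were both in cluster 3. That lineage held 31.5% of all called eribulin multiome cells, and these counts are too small to compare with that share.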

How the data were processed

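The files used were a table of 43782 cells, their UMAP coordinates and a list of designed lentiviral barcodes. Per the series' design text, peak matrices came from cellranger-atac 1.2.0 (run 1) and cellranger-arc 1.0.0 (run 3) on mm10 and were filtered and clustered with Signac 1.1.1. The submitters' processing notes also name Cell Ranger 3.1.0 and 4.0.0. The integration of the libraries and the calling of barcodes are not described in the labels or headers. The deposited counts per cell (cut sites in peaks, peaks, gene activity totals, genes) are whole numbers without normalization. The deposited nucleosome signal and TSS enrichment are a ratio within each cell, per the file headers. Both map axes are a deposited score with no unit. Cluster numbers were made by the authors at resolution 0.8, giving 17 clusters.

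From these tables, shares, medians and neighbour shares (30 nearest cells of the same library) were computed with numpy 2.4.6, pandas 2.3.3, scipy 1.17.1 and matplotlib 3.10.9 in Python 3.11.15, and the calculations were tested on simulated data. Median depth was 7440 cut sites per cell in untreated scATAC, 5217 in untreated multiome, 6049 in eribulin scATAC and 4229.5 in eribulin multiome. Only cells with 1 called barcode entered the comparisons of lineages. Lineages named are the 10 with most cells in cluster 3, others of at least 10 cells with over 50% there, the 5 most frequent after eribulin, and those of scATAC cells in the cluster. Lineage 54-66684, just below that limit, was named after its values were seen. No test was made, since each group is 1 library. The members, lists and comparisons were chosen with earlier results of these data known.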

Additional observations from a re-analysis of the deposited data

How the results depend on the processing

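Other choices of cells, depth and neighbours were tried for each value, and 36 of 53 alternatives left it within counting error. Several of the others left out clusters 2 and 4. Then the share of cluster 3 became 25.9% in scATAC and 28.5% in multiome, and 52.5% of its scATAC cells exceeded the others in cut sites. The nucleosome signal turned to 53.0% above the other cells in scATAC and moved to 48.0% in multiome, and gene activity per cut site turned to 52.1% and 57.5%. With equal weight for each cluster, the nucleosome signal gave 46.5% and 41.9%, and gene activity per cut site 43.9% and 49.3%. With 100 neighbours the multiome share of own neighbours was 35.1%. Counting lineages with at least 2 eribulin cells, 4.89% of called cluster 3 cells were in such lineages, against 9.95% elsewhere. Lineages at 2-fold or more in cluster 3 were 6 of 63 with at least 20 cells, 49 of 212 with at least 5, and 8 of 65 among cells of at least median depth, against 22 of 125. Of cells of lineages under 10 cells, 46.0% were in cluster 3 without clusters 2 and 4, against 25.2% for larger lineages, an alternative chosen after seeing the data. Weighting to equal depth and leaving out doublets changed no direction of nucleosome signal or gene activity per cut site. Without doublets the multiome TSS enrichment was 49% above, on the other side of 50%. No pairing of libraries was possible because each group is 1 library. Only relatives within a library were compared with each other. Lineages of 10 to 20 cells have wide intervals, and shallow cells of cluster 3 had fewer neighbours of their own cluster.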
